A study of Homo sapiens with 4 samples.

Results

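To ask which matrix genes hESCs express and which of them move within hours of BMP or WNT stimulation, 39 genes for collagens, laminins, other matrix proteins and integrins were followed on 4 arrays. The set was a list of gene names, with no measured value in its rule, and it holds 39 of the 20046 genes named on the array and 67 of its 47321 probes. It was made of 16 collagen chains, 5 laminin chains, 10 other matrix proteins and 8 integrin chains. The cells were HuES6, an established human embryonic stem cell line, replated singly on Matrigel after growth in medium conditioned by mouse embryonic fibroblasts. All 4 groups then stayed in serum replacement medium with FGF2 at 20 ng/ml and Activin A at 5 ng/ml. One group was left untreated, and the other groups received for 4 h BMP4 at 20 ng/ml, a ligand of the BMP receptors, the GSK3 inhibitor CHIR99021 at 5 µM, which switches on canonical WNT signaling, or both. Each group was 1 Illumina HumanHT-12 V4 array of total RNA, so no difference has a replicate check and none carries a p-value.

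Collagen chains assemble as trimers into fibrils of the interstitial matrix or, for type IV, into the network of basement membranes. Laminins are trimers of an alpha, a beta and a gamma chain that form the second basement membrane network, which nidogens and proteoglycans join to the first. Integrins are heterodimers of an alpha and a beta chain that bind these proteins from the cell surface. Human pluripotent cells are known for attaching to laminin-511, made of LAMA5, LAMB1 and LAMC1, through the integrin of ITGA6 and ITGB1, and to vitronectin through the integrin of ITGAV and ITGB5. Matrigel itself is a basement membrane extract of a mouse tumour, rich in laminin and collagen IV, so the cells were given matrix from outside.

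Some of these genes lie head to head and share the DNA between their starts, and 3 stretches are shown because the genes on them gave the results described further on. Capitals mark GC boxes (GGGCGG) and CCAAT boxes, read on either strand. The first stretch is the whole of the 126 bases between the starts of COL4A1 and COL4A2, which are transcribed in opposite directions (GRCh38.p14, chr13:110307158-110307283, plus strand, 80.2% G and C). The second is the 250 bases before the start of THBS1 (chr15:39580829-39581078, plus strand, 69.6% G and C), and the third the 250 bases before COL4A5 (chrX:108439588-108439837, plus strand, 51.2% G and C), whose start lies 379 bases from the nearer start of COL4A6 and 1415 bases from the farther one.
COL4A1-COL4A2: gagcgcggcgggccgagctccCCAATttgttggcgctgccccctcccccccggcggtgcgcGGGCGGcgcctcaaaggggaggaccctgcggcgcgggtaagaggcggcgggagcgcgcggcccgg
THBS1: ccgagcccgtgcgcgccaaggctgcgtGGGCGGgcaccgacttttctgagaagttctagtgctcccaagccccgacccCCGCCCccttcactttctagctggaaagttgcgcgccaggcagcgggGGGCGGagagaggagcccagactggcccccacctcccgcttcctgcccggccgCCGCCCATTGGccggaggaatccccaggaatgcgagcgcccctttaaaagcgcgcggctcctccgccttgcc
COL4A5: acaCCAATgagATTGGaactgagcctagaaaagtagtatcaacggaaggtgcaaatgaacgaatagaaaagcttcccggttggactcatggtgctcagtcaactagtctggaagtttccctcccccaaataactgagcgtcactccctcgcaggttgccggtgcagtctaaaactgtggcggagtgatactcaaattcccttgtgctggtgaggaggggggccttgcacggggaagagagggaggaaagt
The THBS1 stretch holds 4 GC boxes and 1 CCAAT box and the COL4A5 stretch 0 GC boxes and 2 CCAAT boxes, while the COL4A1-COL4A2 stretch holds 1 of each. Sequences and coordinates are from RefSeq. A match to these letters is a description of the sequence and not evidence that a factor binds there.

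All values below are normalized log2 intensities of a gene's main probe, the one with the highest mean over the 4 arrays, or differences between such values. Where 4 values follow a gene, they stand in the order untreated, BMP4, CHIR99021 and both treatments. A probe was taken as detected where the scanner software's p-value against negative control probes was below 0.01. Between 15980 and 16762 probes passed that limit per array, and the lowest detected values lay between 4.93 and 5.02. Pearson's r between pairs of arrays lay between 0.984 and 0.99, over 18916 probes. The 11 markers of undifferentiated hESCs on the array, among them POU5F1 and NANOG, were all detected, and their summed linear level, carried by bright probes, ran from 20027 to 20840. Levels of different probes are not on a common scale, so genes are not ranked by level.

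Most of the matrix and integrin genes were detected in these cells. Of the 39, 32 (82.1%) were detected on at least 1 array, beside 56.3% of all genes, and 30 were detected on all 4. All 5 basement membrane collagens, all 4 chains of collagen VI and XII and all 5 laminin chains were detected, as were 6 of 7 fibrillar collagens and all 5 integrin alpha chains. The gaps fell among the glycoproteins of the interstitial matrix, with 3 of 6 detected, and among nidogens and basement membrane proteoglycans, with 2 of 4. The 7 genes not detected on any array were COL2A1, the collagen of cartilage, FN1, VTN, FBN1, NID2, HSPG2 and ITGB3. In bulk RNA, fewer cells of a type and less RNA per cell cannot be told apart.

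FN1, which encodes fibronectin, a glycoprotein that many cultured cells deposit, stayed below the detection limit. Its main probe read 4.81 in untreated cells, 4.60 with BMP4, 4.48 with CHIR99021 and 4.47 with both, with detection p-values of 0.019, 0.097, 0.173 and 0.190. None of its 3 probes was detected on any array, although a limit of 0.05 would take its untreated value as detected. VTN, the gene of vitronectin, which liver secretes into plasma, read 4.24, 4.36, 4.22 and 4.25 in the same order, also not detected. Which stretch of a transcript each probe covers was not used here, so a low reading is a statement about these probes.

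**Figure D1:**
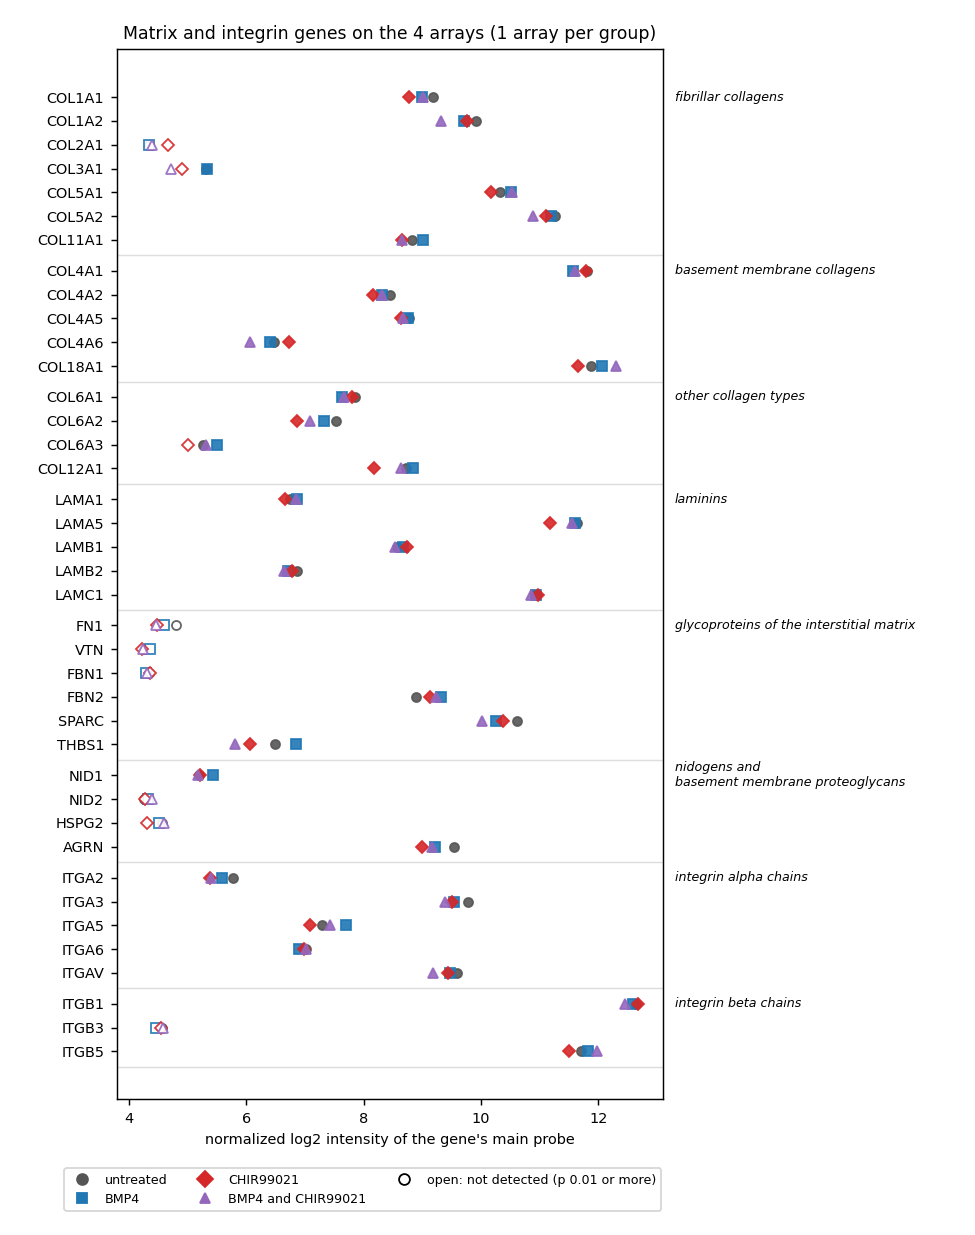
Normalized log2 intensity of the main probe of each of the 39 genes (horizontal axis) on the 4 arrays, ordered by role. Filled symbols are detected (p below 0.01) and open symbols are not; 30 genes are filled on all 4 arrays and 7 on none, and for most genes the 4 symbols lie close together.

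By the size rule, a log2 difference of at least 1, which is a change of at least 2-fold, in either direction, hardly any of the set moved. BMP4 alone left 0 of 32 measured members past it, against 0.295% of all genes measured. CHIR99021 alone left 0 of 32, against 0.921%, and both treatments together 0 of 32, against 1.28%, when set against untreated cells. Adding BMP4 to CHIR99021 gave 0 of 31, against 0.416%. Adding CHIR99021 to BMP4 gave 1 of 32, against 0.811%, and that gene was THBS1. With backgrounds near 1%, a count of 0 among 32 genes does not set the group apart from other genes.

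THBS1 encodes thrombospondin 1, a secreted glycoprotein that binds cells and other matrix proteins and is known as an activator of latent TGF-beta. It read 6.49 in untreated cells, 6.84 with BMP4, 6.07 with CHIR99021 and 5.80 with both treatments, detected on all 4 arrays. Both arrays with CHIR99021 lay below both arrays without it. With BMP4 present, CHIR99021 gave a log2 difference of -1.04, a level 2.05-fold lower. Without BMP4 the difference was -0.42, which is inside the middle 90% of genes detected on all arrays (-0.57 to 0.50). Against untreated cells, both treatments gave -0.68, a 1.61-fold lower level, outside the middle 90% of that comparison (-0.57 to 0.54). THBS1 has a single probe here, so no second probe bears on it, and the 2.05-fold difference is below 2-fold with a larger offset or without background correction.

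At the smaller size of 0.5, few members passed in any comparison, and counts this small do not set the group apart from other genes. Those that passed where CHIR99021 was compared with its absence were lower. Under BMP4 alone, 0 were higher and 0 lower, against 4.02% and 4.14% of all genes. Under CHIR99021 alone, 0 were higher and 3 lower (9.38%), namely COL6A2, COL12A1 and AGRN, against 6.03% and 8.11%. Under both treatments against untreated cells, 0 were higher and 4 lower (12.5%), namely COL1A2, COL3A1, SPARC and THBS1, against 7.31% and 8.49%. When CHIR99021 was added to BMP4, 0 were higher and 2 lower (6.25%), COL3A1 and THBS1, against 5.2% and 5.98%. COL3A1 reached this size only through readings that were not detected, and with detection required on all arrays compared the lower members were 3 of 31 and 1 of 31 in the comparisons that held it. When BMP4 was added to CHIR99021, COL18A1 was higher and COL4A6 lower, 1 each of 31, against 7.24% and 5.32%. With the arrays scaled to a common median in place of quantile normalization, the shares of all genes higher and lower were 2.44% and 8.10% for BMP4 alone, 4.66% and 13.0% for both treatments against untreated cells, and 4.61% and 9.95% for BMP4 added to CHIR99021. Lower members were then 0 of 32, 6 of 32 (18.8%) and 3 of 31 (9.68%) in these comparisons, and COL18A1, at 0.49, was no longer past the smaller size. Without background correction 0 members were lower under CHIR99021 alone, against 2.33% of all genes, and 2 under both treatments against untreated cells, against 2.38%.

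**Figure D2:**
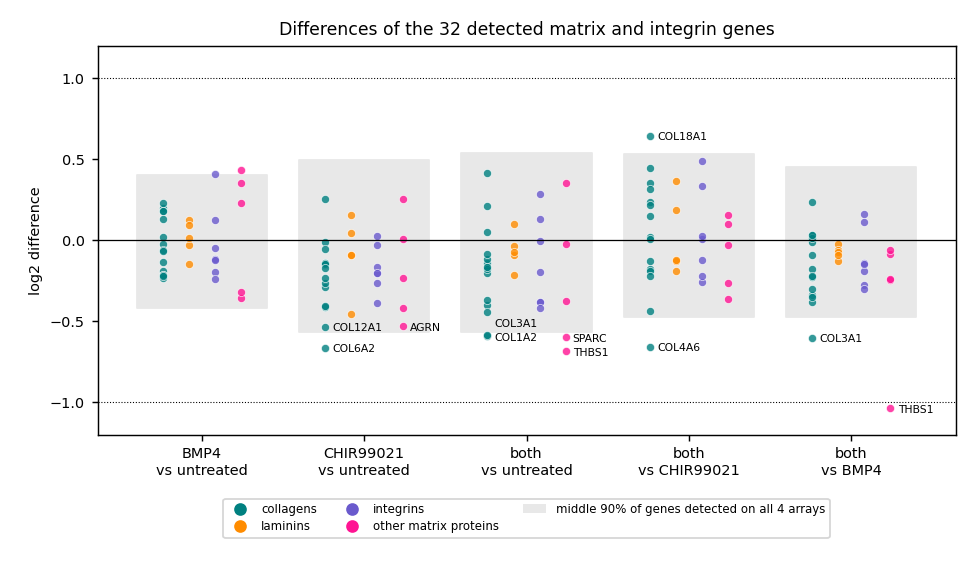
Log2 difference (vertical axis) of each of the 32 detected genes in the 5 comparisons, 1 point per gene, coloured by family, with COL3A1 shown although neither array detected it where BMP4 was added to CHIR99021, grey boxes for the middle 90% of all genes detected on all 4 arrays and dotted lines at the size rule of 1. THBS1 at -1.04 is the lone point past a dotted line, and the named points are those of at least 0.5 in size.

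At the main probes, the shift under CHIR99021 was small and shared by many members rather than large in a few. Of 8 further probes detected on all 4 arrays, only 4 had the sign of their main probe under CHIR99021 alone. Under CHIR99021 alone, 26 of 32 members (81.2%) read below untreated cells, with a median difference of -0.17, while 51.5% of all genes read lower, with a median of -0.01. When CHIR99021 was added to BMP4, a pair that shares no array with the first, 25 of 32 read lower, against 50% of all genes. The median was -0.14, beside a median of 0.00 for all genes. Lower in both pairs were 19 of 32 members (59.4%), against 30.3% of all genes, and lower in both by at least 0.5 or higher in both by as much were 0 of 32, against 3.01%. Averaged over both pairs, 27 of 32 lay below 0, with a median of -0.17, beside 49.9% of all genes with a median of 0.00.

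The corresponding numbers for BMP4 stayed near those of the array as a whole. Of 32 members 18 read lower under BMP4 alone, with a median of -0.04, against 50.4% of all genes. Of 31 members 14 read lower when BMP4 joined CHIR99021, with a median of 0.01, against 50.1%. Lower in both pairs were 10 of 31 (32.3%), against 29.2% of all genes, and 0 of 31 differed by at least 0.5 the same way in both, against 1.28%. Both treatments together, set against the same untreated array as the single treatments, gave a median of -0.17, with 25 of 32 members lower. Of all genes 51.4% read lower in that comparison, with a median of -0.01.

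Markers of other cell types were read beside this shift. Of 12 markers of fibroblasts and mesenchyme 5 were detected (THY1, PDGFRB, TWIST1, TWIST2 and ACTA2), while PDGFRA, PRRX1, DCN, LUM, FAP, MEOX2 and DPT were not. Summed over all 12, detected or not, the linear level was 4110 in untreated cells, 3915 with BMP4, 3513 with CHIR99021 and 3738 with both. Under CHIR99021 alone THY1, which hESCs also carry, differed by -0.37, TWIST2 by -0.41, ACTA2 by -0.16 and PDGFRB by -0.10, while TWIST1 differed by 0.04. Of 8 endothelial markers 3 were detected, CDH5, TEK and, in untreated cells only, KDR. They differed by -0.80, -0.39 and -0.20 under CHIR99021 alone, the last resting on a reading that was not detected. Summed over all 8, detected or not, the level was 482, 434, 379 and 350. For primitive and parietal endoderm, a source of basement membrane proteins, 2 of 9 markers were detected, AFP and SOX7. AFP differed by 0.26 under CHIR99021 alone. SOX7 was detected on 1 array only, neither the untreated nor the CHIR99021 array, so no difference is given for it. Of 7 neuroectoderm markers 3 were detected, NES at -0.07, OTX2 at 0.09 and DCX, not detected in untreated cells, at 0.40. The 11 hESC markers had a median of -0.02 there. SOX2 differed by -0.91, PRDM14 by -0.72 and L1TD1 by -0.43, and NANOG, ZFP42 and PODXL were slightly lower. POU5F1, LIN28A, DNMT3B, SALL4 and DPPA4 read higher, by 0.04 to 0.34. The part of these genes in the shift was not tested.

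Among the fibrillar collagens, the chains of collagen I, the main collagen of skin and bone, were detected on all arrays. COL1A2 read 9.92 in untreated cells, 9.70 with BMP4, 9.76 with CHIR99021 and 9.32 with both. The array with both treatments was the lowest, by -0.59 against untreated cells, and the single treatments gave smaller differences of -0.21 and -0.15. Its second probe read 9.41, 9.26, 9.45 and 8.92, again lowest with both treatments, at -0.50. COL1A1, the partner chain, read 9.18, 9.00, 8.77 and 9.01, with its lowest value under CHIR99021 alone, so the chains of collagen I did not follow a common order over the arrays.

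COL3A1, the collagen of elastic soft tissue, lay close to the detection limit. It read 5.31 in untreated cells and 5.33 with BMP4, and 4.90 and 4.73 on the arrays with CHIR99021 and with both, where it was not detected. On that footing the level was at least 1.22-fold lower with CHIR99021 than in untreated cells, and at least 1.28-fold lower with both treatments than with BMP4. The differences of the readings, -0.41 and -0.60, rest on values not above background. COL5A1 and COL5A2, the chains of collagen V, which seeds collagen I fibrils, read 10.32, 10.52, 10.18 and 10.53, and 11.25, 11.19, 11.10 and 10.88. COL5A1 was higher on both arrays with BMP4, by 0.20 and 0.35, while COL5A2 was lowest with both treatments. COL11A1, of the cartilage fibril, differed from untreated cells by 0.18, -0.17 and -0.17.

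Of the type IV collagens, the network formers of basement membranes, 3 of the 4 chains stayed within 0.29 of untreated cells at their main probes. COL4A6 ranged more widely over the arrays. COL4A1 read 11.80 in untreated cells, 11.57 with BMP4, 11.79 with CHIR99021 and 11.60 with both, and COL4A2 read 8.45, 8.32, 8.16 and 8.31. The genes share the 126 bases printed above, and under CHIR99021 COL4A1 differed by -0.01 and COL4A2 by -0.29. COL4A5, with 8.78, 8.76, 8.64 and 8.66, stayed within 0.14 of untreated cells at its main probe, and its second probe read lower on all 3 treated arrays, by -0.33, -0.35 and -0.33.

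COL4A6, which faces COL4A5, read 6.47 in untreated cells, 6.41 with BMP4, 6.72 with CHIR99021 and 6.07 with both. The CHIR99021 array was the highest and the array with both treatments the lowest, so BMP4 differed by -0.06 alone and by -0.66 on top of CHIR99021. The sum of the single differences was missed by -0.60, outside the middle 90% of such departures (-0.55 to 0.57). Over the other ways of making the values, the difference of -0.66 ran from -0.76 to -0.36 and the departure from -0.60 to -0.33. COL18A1, the basement membrane collagen whose end fragment is endostatin, read 11.88, 12.06, 11.65 and 12.30. Both arrays with BMP4 were above both without it, with BMP4 differences of 0.18 alone and 0.65 with CHIR99021, the mean of which, 0.41, was the highest of the set and above the middle 90% of all genes (-0.35 to 0.38).

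Collagen VI forms beaded filaments beside basement membranes, and its COL6A2 chain gave the lowest difference of the set under CHIR99021 alone. COL6A2 read 7.54 in untreated cells, 7.32 with BMP4, 6.87 with CHIR99021 and 7.09 with both, and both arrays with CHIR99021 were below both without it. The differences were -0.66 alone and -0.22 with BMP4 present, and a second probe on all 4 arrays gave -0.84 and -0.34. Another, dim probe, detected on 2 arrays, gave 0.26 for CHIR99021 alone. COL6A1 differed from untreated cells by -0.21, -0.05 and -0.18, and COL6A3, 5.27, 5.50, 5.01 and 5.32, was not detected with CHIR99021 alone. COL12A1, a collagen that sits on fibril surfaces, read 8.71, 8.85, 8.18 and 8.63, so that the CHIR99021 array stood -0.53 below untreated cells and the array with both treatments -0.22 below BMP4.

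The laminin chains held nearly level. LAMC1, the gamma chain of laminin-511, read 10.92, 10.93, 10.96 and 10.84 in untreated, BMP4, CHIR99021 and doubly treated cells. LAMB1, the beta chain, read 8.58, 8.67, 8.73 and 8.54. LAMA5, the alpha chain, was the exception under CHIR99021 alone, with 11.63, 11.60, 11.18 and 11.54, a difference of -0.46 that became -0.06 once BMP4 was present. LAMB2, the beta chain of laminin-521, read 6.86, 6.72, 6.77 and 6.65, and LAMA1, the alpha chain of laminin-111, read 6.75, 6.87, 6.66 and 6.85. At the main probes, all 5 laminin chains read lower when CHIR99021 was added to BMP4, with small differences from -0.13 to -0.03, against 50% of all genes. A second LAMA1 probe, detected on 2 arrays, gave 0.22 there, and 4 of 5 chains read lower with the mean of detected probes. Under CHIR99021 alone 3 of 5 read lower, against 51.5%.

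Among the remaining matrix genes, SPARC, a collagen-binding matricellular protein, was lower on every treated array. SPARC read 10.61 in untreated cells, 10.25 with BMP4, 10.37 with CHIR99021 and 10.01 with both. The BMP4 difference was -0.36 in both backgrounds and the CHIR99021 difference -0.23 and -0.24, so the treatments added up to -0.60 with a departure of -0.01. AGRN, the heparan sulfate proteoglycan agrin, was also highest in untreated cells, with 9.53, 9.22, 9.00 and 9.16, but there the CHIR99021 difference was -0.53 alone and -0.06 with BMP4. FBN2, fibrillin 2 of embryonic microfibrils, went the other way, with 8.89, 9.32, 9.14 and 9.24, the untreated array being the lowest. Its BMP4 difference of 0.44, the highest of the set in that comparison, was 0.10 with CHIR99021 present. NID1, nidogen 1, was detected at 5.20, 5.43, 5.21 and 5.18.

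**Figure D3:**
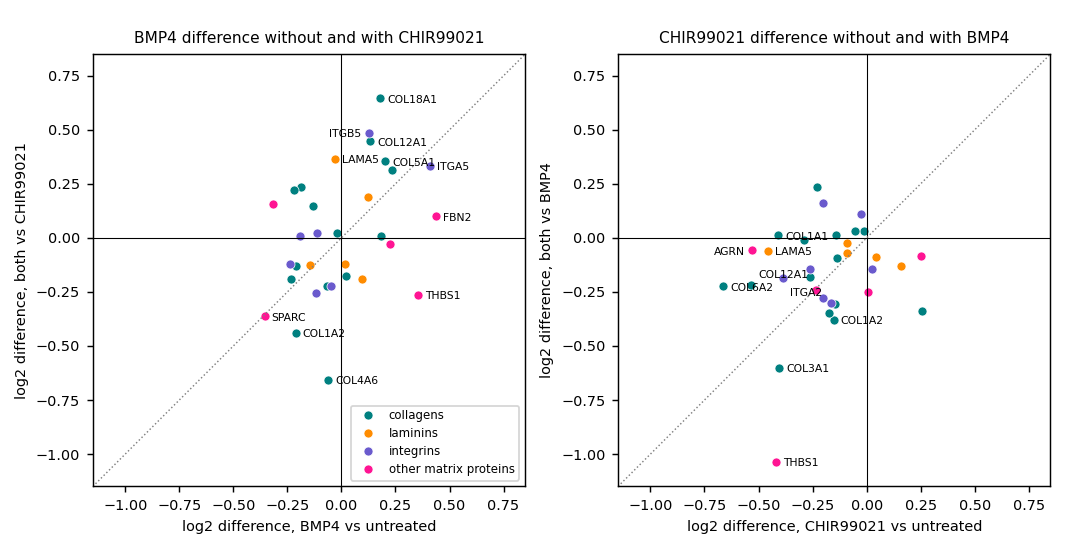
Each point is 1 detected gene, with a treatment's log2 difference without the other treatment on the horizontal axis and with it on the vertical axis (BMP4 on the left, CHIR99021 on the right). In the right panel 19 of 32 genes lie below 0 on both axes, in the left panel 10 of 31, and COL3A1, drawn in the left panel, is not counted there because neither CHIR99021 array detected it.

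The integrin chains of the laminin receptor varied little. ITGA6 read 7.02 in untreated cells, 6.90 with BMP4, 6.99 with CHIR99021 and 7.01 with both, and ITGB1, the beta chain shared by most matrix receptors, read 12.64, 12.59, 12.67 and 12.45. A second ITGB1 probe detected on all arrays read 10.46, 10.34, 10.56 and 10.26, also lowest with both treatments. ITGA3, an alpha chain of another laminin receptor, read 9.77, 9.53, 9.51 and 9.39, and ITGA2, of a collagen receptor, 5.78, 5.58, 5.39 and 5.40. Both were highest in untreated cells, with CHIR99021 differences of -0.26 and -0.39 alone.

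The chains of the vitronectin receptor did not move together. ITGAV read 9.60, 9.48, 9.43 and 9.18, lowest with both treatments at -0.42. ITGB5 read 11.70, 11.82, 11.50 and 11.98, highest with both treatments, and BMP4 differed by 0.13 alone and 0.49 with CHIR99021. The other ITGB5 probes detected on all arrays gave BMP4 differences of 0.32 and 0.11 alone, and 0.43 and 0.25 with CHIR99021, so all 3 probes read above 0 in both pairs. ITGB3, the alternative beta chain for ITGAV, was not detected, at 4.56, 4.46, 4.55 and 4.58. ITGA5, the alpha chain of the fibronectin receptor, read 7.30, 7.71, 7.09 and 7.43, with BMP4 differences of 0.41 and 0.33, and both arrays with BMP4 were above both without it. At the main probes, 6 of the 7 detected integrin chains read lower under CHIR99021 alone, with a median of -0.20. Of 15 detected collagens 14 did, with a median of -0.17, beside 51.5% of all genes with a median of -0.01. Over the other ways of making the values the medians ran from -0.20 to -0.10 and from -0.23 to -0.14.

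A departure from additivity is the gap between the doubly treated array and the sum of the single differences. Here 0 of 32 members departed by at least 1, against 1.32% of all genes, and the median size was 0.19 beside 0.24 for all detected genes. Apart from COL4A6, THBS1 lay outside the middle 90%, at -0.62.

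Further probes of the same genes read the same RNA a second time. For 7 members 8 further probes were detected on all 4 arrays. They had the sign of the main probe in 7 of 8 cases for BMP4 alone, 4 of 8 for CHIR99021 alone, 5 of 8 for both treatments against untreated cells, and 7 of 8 for each treatment added to the other. The median gap between a further probe and its main probe ran from 0.08 to 0.19 over the comparisons and the departure. For CHIR99021 alone this gap was 0.19, beside a median difference of -0.17 over the members.

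**Figure D4:**
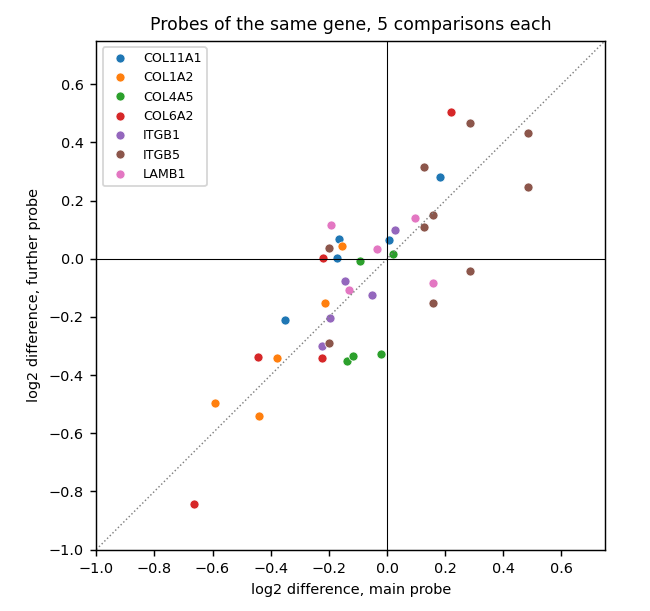
Log2 difference of a gene's main probe (horizontal axis) and of a further probe detected on all 4 arrays (vertical axis), with 5 comparisons for each of 8 further probes of 7 genes. The point farthest from 0 is COL6A2 under CHIR99021 alone (-0.66 and -0.84), near the dotted diagonal of equal values, and points of small size scatter on both sides of 0.

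Genes around the set were read from 7 lists of other matrix and adhesion genes, of which 202 of 210 were on the array and 132 were detected. The size rule was passed by few of the 132, 1 under BMP4 and 2 under CHIR99021, all higher, against 0.295% and 0.921% of all genes. Of these, THBS2 passed on a reading that was not detected in untreated cells. EMILIN2, a glycoprotein of elastic fibres, was 2.14-fold higher with BMP4 alone and 2.80-fold higher with BMP4 on top of CHIR99021. MMP16, a membrane-bound matrix metalloproteinase, was at least 3.45-fold higher with CHIR99021 alone and at least 3.20-fold higher with CHIR99021 on top of BMP4, and was not detected without CHIR99021. THBS2, the relative of THBS1, was at least 1.90-fold higher with CHIR99021, a bound short of 2-fold, and it is on a list that the study made from these arrays. PLAU, the urokinase that activates plasminogen, read 10.88, 10.79, 10.52 and 9.78 and was 2.14-fold lower with both treatments, lowest on the same array as THBS1.

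Over the 132 detected list genes, the median difference under CHIR99021 alone was -0.09, with 79 below 0. Of all genes 51.5% were below 0, with a median of -0.01. The list closest to the integrins in function, the adhesion complex that ties them to actin, had 25 of 29 genes on the array detected and medians of -0.29 for CHIR99021 alone and -0.13 with BMP4 present. The 22 detected enzymes and chaperones of collagen processing had a median of -0.08 for CHIR99021 alone, and none passed the size rule. Medians for CHIR99021 alone were -0.10 for 11 other collagens and -0.10 for 27 proteases and their inhibitors. They lay above 0 for 9 other integrins (0.02), 2 other laminins (0.08) and 36 other glycoproteins and proteoglycans (0.06). With BMP4 present the medians of these integrins, laminins and glycoproteins were 0.21, -0.28 and -0.05.

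Short motifs were counted in the window from 250 bases before to 50 after the start for the 29 members with a promoter sequence in RefSeq, 7 of them with several starts. The TCF/LEF letters CTTTGAA or CTTTGAT, on either strand, were in 0 of 29, against 8.35% of 27305 genes. GGCGCC, a GC-rich element of SMAD1/5, was in 11 (37.9%), against 22.0%, and the SMAD palindrome GTCTAGAC in 0, against 0.256%. The TEAD letters GGAATG were in 7 (24.1%), THBS1 among them, against 16.7%. GC boxes were in 23 (79.3%), against 48.3%, TATAAA in 4 (13.8%), against 14.0%, and CCAAT in 12 (41.4%), against 39.7%. A window without the letters says nothing about a factor that binds elsewhere.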

How the data were processed

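Cells of 4 groups, 1 array each, were grouped by the treatment in the labels. The authors deposited linear raw intensity values with a detection p-value for each of 47321 probes, made in GenomeStudio per the submitters' processing notes (version not given in the sources used here), and a table of normalized intensity values, used as an alternative. In it every array's median was 5.18, and about 26.7% of entries were 0.

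Raw intensities were background-corrected with normexp in limma 3.58.1 (R 4.3.3), the background being estimated from detection p-values, with an offset of 16, which draws dim probes' differences towards 0. Quantile normalization and log2 transformation followed. Probes were named through the platform annotation, with symbols updated by Entrez ID (30073 of 30120 listed probes matched), and 17201 probes are unnamed here. Differences were counted where a probe was detected on at least 1 array compared. Where the dimmer array did not detect it, a fold is "at least", computed against the lowest detected value there or the probe's own value, whichever was higher. The middle 90% was taken over 9303 genes detected on all 4 arrays. Values on all arrays are given for members past the size rule, the 3 largest differences each way per comparison, and the chains of known stem cell laminins and integrins, with other members added by family.

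Groups of 1 array were described without a test, and an additive model over the arrays, which would take departures as error, was not fitted. The counting steps were checked on simulated data. Members and lists were chosen with earlier results of these data known. The alternatives were an offset of 50, no background correction, median scaling, the authors' normalized values (log2 after adding 16), the mean of detected probes, detection on all arrays compared, and a size of 0.5. Precision is limited by having 4 arrays.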

Additional observations from a re-analysis of the deposited data

Results flagged for a closer look

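In 4 genes a treatment's difference had opposite signs with and without the other treatment, both beyond 0.2 in size, and with 1 array per group this was not tested. For COL4A6 the CHIR99021 difference was 0.26 alone and -0.34 with BMP4. For COL18A1 it was -0.23 alone and 0.24 with BMP4. For COL6A2 the BMP4 difference was -0.22 alone, or 0.00 as the mean of detected probes, and 0.22 with CHIR99021. For THBS1 it was 0.35 alone and -0.26 with CHIR99021. The departures from additivity were -0.60 for COL4A6, 0.47 for COL18A1, 0.44 for COL6A2 and -0.62 for THBS1.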

How the results depend on the processing

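No paired analysis was possible because each group was 1 array, with no replicates to pair. With an offset of 50 or without background correction, 0 members passed the size rule when CHIR99021 was added to BMP4, in place of THBS1, whose difference ran from -1.04 to -0.55. With a size of 0.5 the counts were 3 for CHIR99021 alone, 4 for both treatments against untreated cells, 2 for both against CHIR99021 and 2 for both against BMP4. The counts of members with a recurring difference or a departure stayed at 0 under every alternative run, as did those of BMP4 alone past the size rule. With detection p below 0.05, 33 members were detected, FN1 in untreated cells being the one added. All 11 differences of at least 0.5 kept their sign under the 5 other ways of making the values, that of COL3A1 for both treatments against BMP4 running from -0.65 to -0.20. Only those of COL1A2 and SPARC for both treatments against untreated cells, and of THBS1 for both against BMP4, stayed past 0.5 in size throughout. The COL6A2 difference under CHIR99021 alone came down to -0.42, and that of THBS1 for both treatments against untreated cells to -0.35. Of 960 values 84.9% lay within 0.1 of those reported. The median over members ran from -0.18 to -0.11 for CHIR99021 alone, from -0.25 to -0.13 for both treatments against untreated cells, from -0.14 to -0.08 for both against BMP4, from -0.15 to -0.02 for BMP4 alone, and from -0.09 to 0.02 for both against CHIR99021, which changed its sign. Median scaling moved the median of all genes to -0.12 for BMP4 alone, -0.11 for both treatments against untreated cells and -0.11 for both against CHIR99021. Under BMP4 alone it moved that of members to -0.15, so the 23 of 32 members then below 0 stand beside 68.4% of all genes. With that scaling 19 of 32 members were still lower in both CHIR99021 pairs, against 28.2% of all genes.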
